A study of Rattus norvegicus with 31 samples.

Results

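The colon of rats fed a high salt diet with calcitriol added (CAL) was compared with the colon of rats on high salt alone (HS). The comparison used 10 of the 31 RNA-seq libraries of the series, 6 CAL and 4 HS. Both groups carried the high salt diet, so by their labels they differ in the added calcitriol. A normal control group (NC, 5 colon libraries) was fitted in the same model and is given for orientation; the remaining libraries are kidney cortex and are not used here. Strain, sex, age, calcitriol dose, duration and hour of tissue collection are not given in the labels. Nothing in them says that replicates came from separate animals, so p-values measure only the spread between these samples, which may be technical.

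The fifth HS colon library, replicate 3, was left out, so the libraries were selected on the measured levels of Fabp6, Reg3g, Aqp8 and Car1. The library left out held 13820 CPM (read counts scaled to the library total) of Fabp6, the bile acid binding protein of the ileum, and 40121 CPM of Reg3g, an antimicrobial lectin of the small intestine. Fabp6 reached at most 11.7 CPM in any CAL library, 15.2 CPM in any of the 4 retained HS libraries and 13.7 CPM in any NC library. The same library had 4.81 CPM of the water channel Aqp8 and 7.21 CPM of the carbonic anhydrase Car1, both surface colonocyte genes. Aqp8 lay between 607 and 1202 CPM in CAL and between 229 and 503 CPM in the retained HS libraries. Among the retained HS libraries, replicate 1 had the most Reg3g (58.8 CPM) and Fabp6 (15.2 CPM). Replicate 2 of HS had the least Aqp8 (229 CPM) and replicate 5 the least Car1 (1021 CPM). In CAL, Car1 lay between 269 and 2776 CPM. These genes chose the libraries and are given as a description only. The distal gut homeobox gene Hoxb13 had no count in HS replicate 3, whereas it lay between 562 and 804 CPM in CAL and between 497 and 725 CPM in the retained HS libraries after TMM scaling (trimmed mean of M values).

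Calcitriol, the hormonal form of vitamin D, binds the vitamin D receptor (Vdr), which pairs with a retinoid X receptor on DNA and turns on genes of calcium uptake and of its own breakdown. In gut epithelium the best known targets are the calcium channel Trpv6, the calcium carrier calbindin-D9k (S100g), the calcium pump Atp2b1 and the degrading enzyme Cyp24a1. Dbp and Arntl, the genes with the smallest p on the lower and the higher side here, belong to another system, the circadian clock. In that loop the activators Clock and Arntl (Bmal1) drive the repressors of the Per, Cry and Nr1d (Rev-erb) families and output factors such as Dbp, so that Arntl and Dbp peak at opposite phases of the day.

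Of 7744 genes tested with edgeR's quasi-likelihood test and Benjamini-Hochberg adjustment, 1 was lower in CAL, which is 0.0129% of those tested, and 0 were higher (0%). The single gene past the adjusted threshold was Dbp. At an unadjusted p under 0.05 the counts were 261 higher (3.37%) and 385 lower (4.97%), 8.34% of the genes in all. DESeq2 called 4 genes higher and 2 lower, namely Aldh2, Aqp8, Arntl, Bok, Dbp and Irf7. Of these, Aqp8 is among the genes that chose the libraries. The median log2 fold change over all tested genes was -0.02, and 48.2% of them lay above 0. In 37 genes (0.478%) every CAL library lay above every HS library, and in 42 genes (0.542%) every CAL library lay below every HS library.

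**Figure D1:**
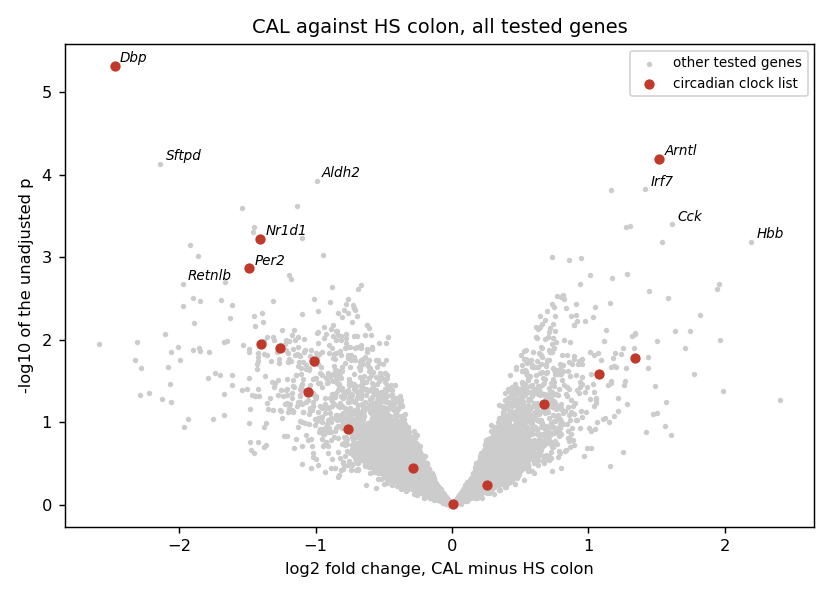
Log2 fold change of CAL minus HS colon (horizontal) against -log10 of the unadjusted p (vertical) for all 7744 tested genes, with the circadian clock list in red. Dbp stands at the left top with a log2 fold change of -2.47, and Arntl at the right with 1.52.

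The promoter windows of 4 clock genes are shown first, because their log2 fold changes have opposite signs and their family is known to be driven through different short elements. Each runs from 250 bases before to 50 bases after the annotated start, from RefSeq on GRCr8, whereas the counts were made on Rnor_6.0, so no coordinate is shared between them. The elements searched on both strands were the E-box CACGTG, bound by Clock with Arntl, the Rev-erb and Ror element TAGGTCA or TGGGTCA, and the D-box TTATGTAA or TTACATAA, bound by Dbp and Nfil3. Capitals mark the matches.
Dbp: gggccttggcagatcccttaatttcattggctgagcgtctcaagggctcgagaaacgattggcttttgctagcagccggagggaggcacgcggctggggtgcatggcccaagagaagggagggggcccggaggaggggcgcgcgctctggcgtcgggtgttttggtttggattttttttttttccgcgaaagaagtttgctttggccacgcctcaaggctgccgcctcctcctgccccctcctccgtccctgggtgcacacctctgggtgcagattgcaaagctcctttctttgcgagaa
Arntl: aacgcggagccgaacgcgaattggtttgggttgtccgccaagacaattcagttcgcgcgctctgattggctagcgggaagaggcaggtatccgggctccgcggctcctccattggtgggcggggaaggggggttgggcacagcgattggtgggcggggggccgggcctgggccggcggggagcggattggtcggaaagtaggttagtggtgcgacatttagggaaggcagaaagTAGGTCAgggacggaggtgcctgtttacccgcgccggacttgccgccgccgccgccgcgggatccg
Nr1d1: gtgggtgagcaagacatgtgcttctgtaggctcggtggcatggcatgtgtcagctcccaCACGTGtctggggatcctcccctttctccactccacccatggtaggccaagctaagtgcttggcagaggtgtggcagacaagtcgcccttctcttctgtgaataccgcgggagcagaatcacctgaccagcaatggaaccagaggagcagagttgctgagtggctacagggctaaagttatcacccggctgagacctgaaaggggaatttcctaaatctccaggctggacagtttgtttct
Per2: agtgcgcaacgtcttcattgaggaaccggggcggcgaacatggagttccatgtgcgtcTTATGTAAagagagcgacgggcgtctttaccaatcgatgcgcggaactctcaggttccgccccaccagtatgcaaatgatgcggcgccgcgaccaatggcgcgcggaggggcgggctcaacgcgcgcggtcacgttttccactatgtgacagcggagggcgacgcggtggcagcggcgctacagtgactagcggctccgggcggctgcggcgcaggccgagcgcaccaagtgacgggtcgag

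The Dbp window lies at chr1:105312006-105312305 on the plus strand and held none of these letters. The Arntl window, chr1:176766078-176766377 on the plus strand, held a Rev-erb and Ror element whose first base is at -16 from the start. Nr1d1 has 2 annotated starts on the minus strand. The downstream one, chr10:84229405-84229704, is the window shown and held an E-box at -191. The upstream one, chr10:84231763-84232062, is not shown and held none of these letters. The Per2 window, chr9:99496944-99497243 on the minus strand, held a D-box at -192. Among 33469 RefSeq promoter windows of that length, 6.42% held the E-box, 6.6% the Rev-erb and Ror element and 0.893% the D-box. A match is a description of the letters and not a bound site.

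Dbp, the D-box activator and a direct output of the clock, fell in CAL. Its level was 12.4 CPM at the lowest, 18.9 CPM at the median and 41.9 CPM at the highest of the 6 CAL libraries, against 76.8, 115, 149 and 124 CPM in the 4 HS libraries. No CAL library reached the lowest HS library. The means were 21.5 ± 10.6 CPM in CAL and 116 ± 29.9 CPM in HS (SD, n = 6 and n = 4), a log2 fold change of -2.47 ± 0.41 (SE) with a 95% interval of -3.33 to -1.61 and an edgeR adjusted p of 0.0371. The NC libraries had 21.9, 20.2, 24.5, 30.1 and 104 CPM, so 4 of 5 lay in the CAL range and NC replicate 5 lay among the HS values. The call rests on few libraries. It was lost when any CAL library but replicate 3, HS replicate 2, 4 or 5, or NC replicate 4 was left out, with log2 fold changes between -2.69 and -2.33 and adjusted p between 3.62e-04 and 0.222 over all 15 such fits. With HS replicate 3 added back the log2 fold change was -2.47 and the adjusted p 0.0330.

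Arntl, the activator that partners Clock, showed the opposite order without passing the threshold. Its level was 61.0 CPM at the lowest, 118 CPM at the median and 161 CPM at the highest in CAL, against 53.0, 24.3, 39.0 and 42.5 CPM in HS. The groups did not overlap. The NC libraries, at 67.8 to 137 CPM, lay above every HS library. The log2 fold change was 1.52 ± 0.31 (SE), with an edgeR adjusted p of 0.190.

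Among the repressors, Per2 had 7.68 to 15.3 CPM in CAL (median 12.4) and 31.6, 15.5, 41.5 and 55.6 CPM in HS, without overlap, for a log2 fold change of -1.48 ± 0.41 (SE, edgeR adjusted p 0.437). Nr1d1, which represses Arntl, had 18.5 to 73.0 CPM in CAL (median 49.2) and 68.8, 93.0, 227 and 160 CPM in HS, where the highest CAL library exceeded the lowest HS library. Its log2 fold change was -1.41 ± 0.35 (SE, edgeR adjusted p 0.296). The related Nr1d2 (-1.01) and Per3 (-1.06) had negative log2 fold changes, whereas Cry1, a repressor that peaks later in the cycle, had a positive one (1.08). Cry2 stood at 0.01.

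The D-box factors split in the same way. Tef, an activator of the Dbp family, had 6.18 to 35.8 CPM in CAL and 37.2 to 91.6 CPM in HS (log2 fold change -1.26), and the clock-controlled kinase gene Wee1 had 6.01 to 17.3 CPM in CAL and 17.7 to 45.1 CPM in HS (-1.40). Neither overlapped between the groups, and both had an edgeR adjusted p of 0.504. Nfil3, the D-box repressor, had 7.68 to 39.3 CPM in CAL and 6.54 to 11.3 CPM in HS (1.34). Clock (0.25) and Bhlhe40 (-0.29) lay nearer to 0.

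Of the 21 clock genes listed, 15 were tested, and edgeR called 1 lower and 0 higher, whereas DESeq2 called both Dbp and Arntl. At an unadjusted p under 0.05 there were 3 higher and 7 lower, beside 3.37% and 4.97% of all genes. Between the groups, 5 of 15 did not overlap, beside 1.02% of all genes. The list's median log2 fold change was -0.76, -0.50 without HS replicate 5 and -0.28 without HS replicates 4 and 5. The list was drawn up with earlier results of these data known, so the count describes and does not test it. The hour of collection is not given in the labels, and its part in the clock values was not tested.

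**Figure D2:**
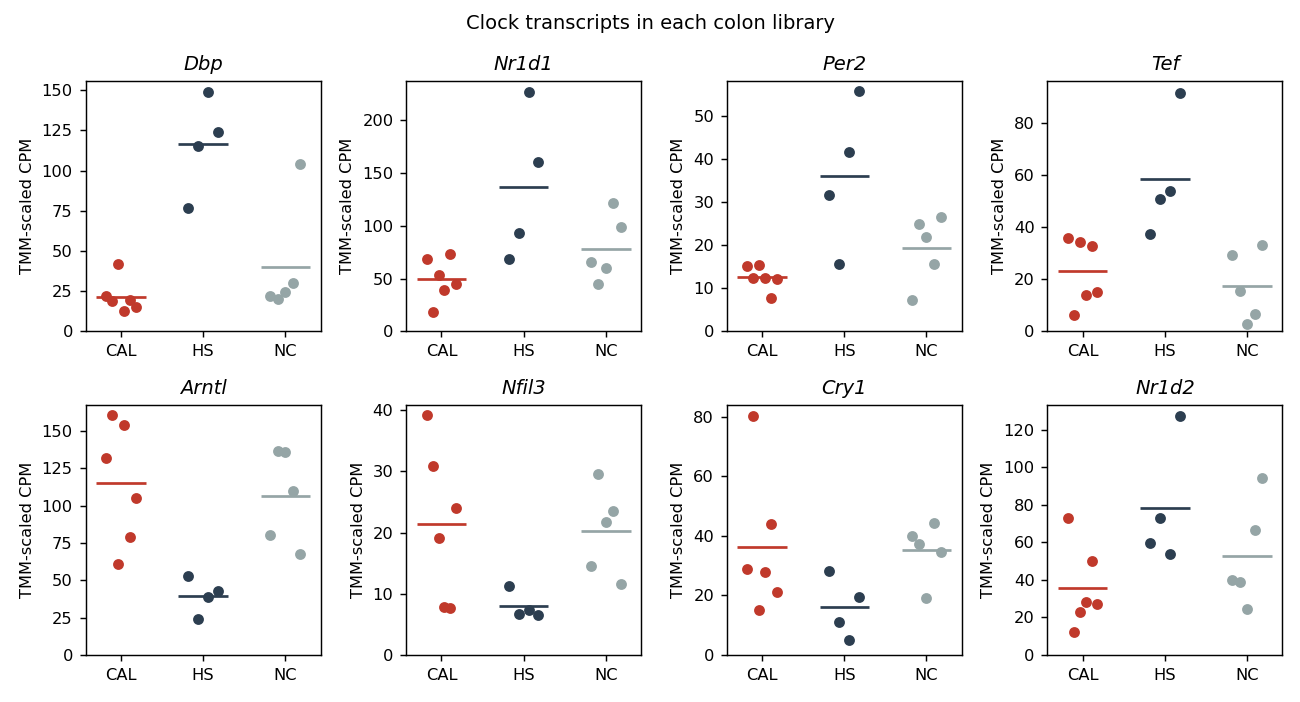
TMM-scaled CPM of 8 clock genes in each colon library, with a bar at each group mean. The CAL points of Dbp, Per2 and Tef all lie below the HS points, and those of Arntl all lie above.

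The textbook targets of calcitriol showed no call by edgeR or DESeq2. Of the 37 listed vitamin D genes in the file, 22 were tested and edgeR called 0, beside 0.0129% of all genes. At an unadjusted p under 0.05, 0 were higher and 1 lower, beside 3.37% and 4.97% of all genes. No member separated the groups, beside 1.02% of all genes. For 22 genes these counts lie near those shares. The median log2 fold change of the 22 genes was 0.11, with 13 above and 9 below 0, against -0.02 for all genes. The sign of that median was not stable. It was -0.12 without CAL replicate 1 and -0.09 without HS replicate 2, against 0.27 with no low-count filter, 0.23 with a filter of 1 CPM in at least 4 libraries and 0.30 with HS replicate 3 added back. Without CAL replicate 2 it was 0.16, and without CAL replicate 4 it was 0.07.

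Vdr, the receptor, had 260 CPM at the lowest, 400 CPM at the median and 419 CPM at the highest in CAL, against 332, 175, 356 and 301 CPM in HS, a log2 fold change of 0.32 with a 95% interval of -0.22 to 0.86. Trpv6, the apical calcium channel, had 96.1 to 238 CPM in CAL (median 189) and 140, 144, 127 and 128 CPM in HS, with an interval of -0.12 to 0.88 around 0.38. The CAL range enclosed the HS values. S100g had 718 to 4305 CPM in CAL (median 2943) and 2299, 2131, 659 and 4094 CPM in HS. Its interval, -0.82 to 1.33 around 0.26, is wide in both directions.

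Atp2b1, the basolateral calcium pump, was the listed gene with the smallest p and stood on the other side. It had 141 to 219 CPM in CAL (median 175) and 344, 150, 225 and 327 CPM in HS, a log2 fold change of -0.59 ± 0.22 (SE) with an edgeR adjusted p of 0.504. Cdkn1a, a cell cycle inhibitor that calcitriol is known to raise in some cells, averaged 80.5 CPM in CAL and 51.1 CPM in HS (0.56). Cyp24a1 had 1 count over all 6 CAL libraries and 0 over the 4 HS libraries, both at or under the floor of 3 counts. Cyp27b1, the enzyme that makes calcitriol, had 0 counts in every library, and Trpv5 had 1 count in CAL and 0 in HS. Calb1, the larger calbindin, was too low to be tested, with 20 counts over the CAL libraries and 3 over the HS libraries.

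**Figure D3:**
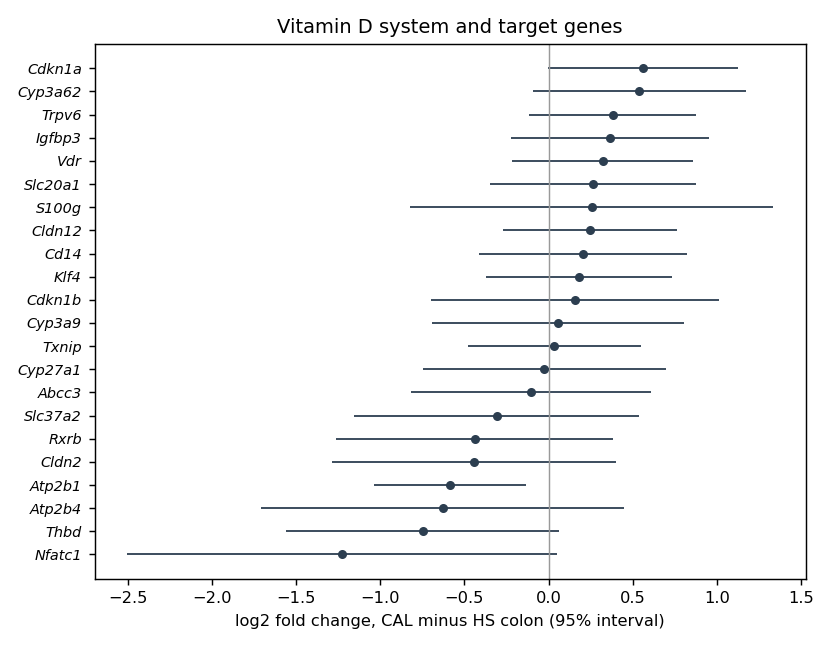
Log2 fold change of CAL minus HS colon with its 95% interval for the 22 tested genes of the vitamin D list. The interval of Atp2b1, -1.04 to -0.14, lies below 0, and those of Vdr, Trpv6 and S100g include 0.

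Library content differed among the HS samples, and among the CAL samples, before any gene is read. The first principal component carried 35.3% of the variance of the 500 most variable genes with Cr2, Cxcl13 and Ms4a1 of B cell follicles among its leading genes. HS replicates 4 and 5 lay furthest out on it, at 34.3 and 18.7, followed by CAL replicate 4 at 14.9. NC replicate 1 lay at 13.4 and CAL replicate 3 at 13.1. In plain CPM, Cr2 was 142 and 97.5 in CAL replicates 3 and 4 and at most 2.76 in the other CAL libraries. The summed B and plasma cell markers were 2064 to 3321 CPM in CAL and 2075, 2307, 6973 and 5640 CPM in HS. The smooth muscle markers summed to 7595 to 11796 CPM in CAL and 5360, 38688, 8827 and 28757 CPM in HS. Colonocyte markers, which include Aqp8 and Car1, were 57128 to 81343 CPM in CAL and 43096 to 71926 CPM in HS. In bulk tissue, fewer cells of a type and less RNA per cell cannot be told apart.

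**Figure D4:**
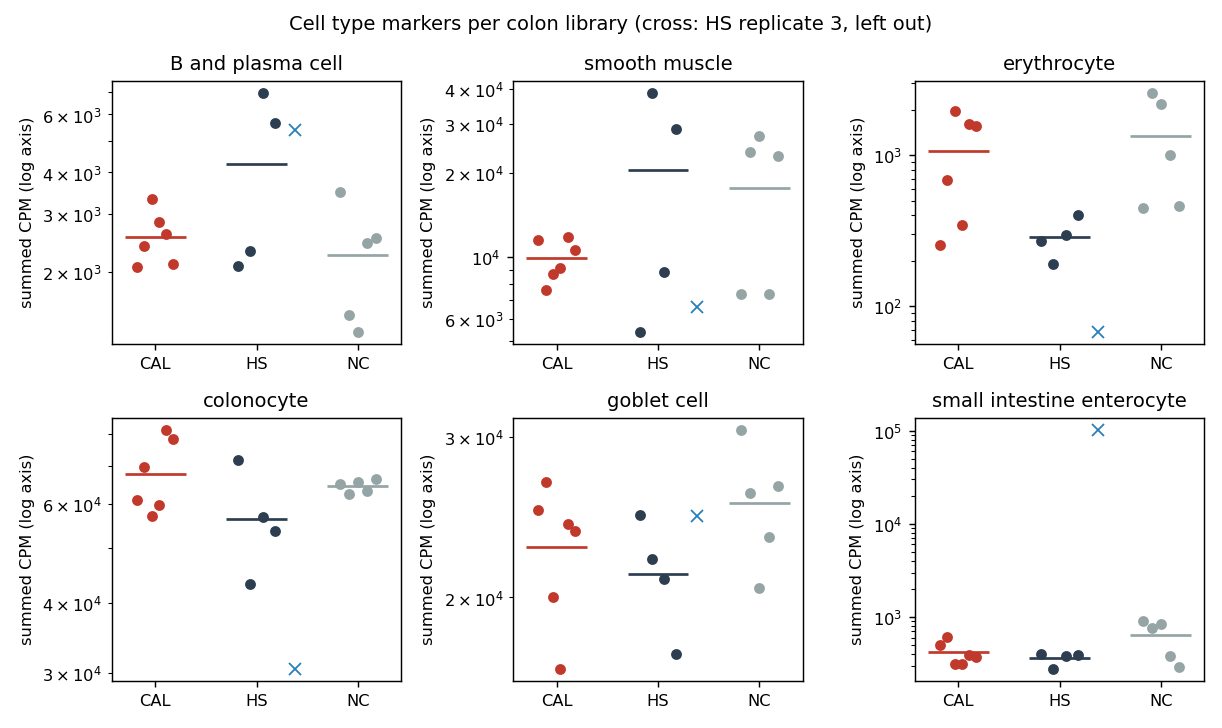
Summed CPM of the marker genes of 6 cell types in each colon library, on a log axis, with a bar at each group mean and HS replicate 3 as a cross. HS replicates 4 and 5 are high for B cell markers, HS replicates 2 and 5 for smooth muscle, and replicate 3 alone for small intestine.

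The sign of both lists turned without these samples. The median log2 fold change of 13 tested B and plasma cell genes was -1.47. It became -0.27 when HS replicate 4 was dropped, -0.67 when HS replicate 5 was dropped and 2.11 when both were. That of 21 smooth muscle genes was -1.04, with 20 below 0, -0.48 without HS replicate 2 and 0.51 without HS replicates 2 and 5. The 3 tested haemoglobin and erythrocyte genes had positive folds: Hbb averaged 605 CPM in CAL and 132 CPM in HS (2.19 ± 0.55, SE, edgeR adjusted p 0.296). Haemoglobin made up 0.0243 to 0.191% of counts in CAL, 0.0189 to 0.0376% in HS and 0.0447 to 0.254% in NC. Near-identical globin and MHC copies can share reads, and their single-gene values are uncertain.

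Outside the clock, the 9 other genes with the smallest p on the higher side did not pass edgeR's threshold, and neither did the lower ones. DESeq2 called Irf7, Aqp8, Bok and Aldh2 of these. With no low-count filter, edgeR also called Irf7, Aqp8, Cck, Bok, Steap3, Hbb, Sftpd, Aldh2, St6galnac1 and Fermt3. Irf7, the interferon regulator, had 76.1 CPM at the lowest, 105 CPM at the median and 206 CPM at the highest in CAL, against 39.5, 37.6, 36.6 and 68.7 CPM in HS (1.42 ± 0.31, SE, edgeR adjusted p 0.199). Isg15, a ubiquitin-like interferon product, averaged 72.0 CPM in CAL and 28.3 CPM in HS. Neither overlapped between the groups, beside 1.02% of all genes without overlap. Of 20 interferon genes tested, edgeR called 0, beside 0.0129% of all genes, and DESeq2 called Irf7. Beside 48.2% of all genes, 15 of the 20 interferon genes lay above 0. Their median was 0.28, 0.10 without CAL replicate 1, 0.44 without HS replicate 1 and likewise without HS replicate 4, and -0.29 with HS replicate 3 added back.

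Cck, the gut hormone cholecystokinin, averaged 47.3 CPM in CAL and 14.6 CPM in HS (1.61). Of 6 enteroendocrine markers tested, Cck alone lay above 0 and 5 lay below, with a list median of -0.38. Steap3, a ferrireductase, averaged 37.7 CPM in CAL and 12.3 CPM in HS (1.54), and Bok, of the Bcl2 family, 441 CPM in CAL and 179 CPM in HS (1.27). Esrra, a nuclear receptor of mitochondrial genes, had 116 to 152 CPM in CAL and 63.5 to 102 CPM in HS, without overlap. Arrdc4, an arrestin-related gene, and Cebpg, a leucine zipper factor, had log2 fold changes of 0.95 and 0.85. Aqp8 (1.17) belongs to the genes that chose the libraries.

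On the lower side, Sftpd, the collectin surfactant protein D, had 24.8 to 338 CPM in CAL (median 227) and 994, 575, 1372 and 428 CPM in HS, without overlap (-2.14 ± 0.44, SE, edgeR adjusted p 0.190). Aldh2, the mitochondrial aldehyde dehydrogenase, had 157 to 234 CPM in CAL and 238, 533, 452 and 334 CPM in HS (-0.99 ± 0.21, SE, edgeR adjusted p 0.199). Both sets of CAL libraries lay wholly below HS. Bcat2, which transaminates branched-chain amino acids, averaged 39.3 CPM in CAL and 84.6 CPM in HS (-1.14), and St6galnac1, a sialyltransferase of mucin sugars, 113 CPM in CAL and 242 CPM in HS (-1.10). With Dbp and Nr1d1, the 10 lowest by p also held Rangap1, which activates the Ran GTPase of nuclear transport (-1.54), the secreted factor Fam3c (-1.45), the telomere helicase Rtel1 (-1.46) and the blood cell integrin regulator Fermt3 (-1.92).

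The junction and transport lists gave 0 calls by edgeR, beside 0.0129% of all genes, and DESeq2 called Aqp8 of the transport list. Aqp8 is among the genes that chose the libraries, so that call is no support for the list. Of 26 junction genes, 23 lay above 0, beside 48.2% of all genes, and the list's median was 0.24. Without CAL replicate 1 the median was 0.16, with 17 above 0, and without HS replicate 2 it was 0.14. The claudin Cldn23 averaged 225 CPM in CAL and 135 CPM in HS (0.74). Of 30 ion and water transport genes, 14 lay above and 16 below 0. The epithelial sodium channel subunit Scnn1a had 139 to 290 CPM in CAL and 223, 122, 347 and 173 CPM in HS, and its interval of -0.51 to 0.60 covers 0. The exchanger Slc9a3 had 54.3 to 553 CPM in CAL and 170, 195, 31.7 and 19.6 CPM in HS (-0.18 to 2.55). Guca2a, the peptide guanylin, averaged 7529 CPM in CAL and 4680 CPM in HS (0.69).

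Of 17 mucus and defence genes tested, 7 lay above and 10 below 0. Retnlb, the goblet cell protein RELM beta, had 27.9 to 156 CPM in CAL and 376, 637, 520 and 19.6 CPM in HS (-1.97 ± 0.57, SE, edgeR adjusted p 0.491). HS replicate 5 lay below all CAL libraries while the other 3 HS libraries lay above them. The immunoglobulin carrier Pigr averaged 394 CPM in CAL and 603 CPM in HS (-0.62). Tff3, the trefoil peptide, averaged 7349 CPM in CAL and 5799 CPM in HS (0.34).

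Growth and matrix lists lay mostly below 0 with 0 calls by edgeR or DESeq2, beside 0.0129% of all genes called by edgeR. Over all tested genes, 48.2% lay above 0. Of 31 cell cycle genes, 26 lay below 0. Their median was -0.45, -0.23 without CAL replicate 1 and -0.22 on thinned counts, where 12 were tested. Among them were Mcm3, a replication helicase subunit, at 11.1 CPM in CAL and 45.5 CPM in HS, and Ccnd2 at 157 CPM in CAL and 252 CPM in HS. The log2 fold change of Mcm3 was unstable, from -2.34 to -0.26 over 25 alternative fits. That of Ccnd2 ranged from -0.84 to -0.55 over 27. Myc averaged 11.8 CPM in CAL and 35.3 CPM in HS (-1.66). Of 30 extracellular matrix genes, 27 lay below 0 (median -0.36, and -0.16 without HS replicates 2 and 5), Col1a1 at 68.9 CPM in CAL and 120 CPM in HS among them. The part in this of the smooth muscle and B cell content, which differed in the same HS libraries, was not tested. The 71 respiratory chain genes had a median of 0.21, with 57 above 0. It was 0.06 without HS replicate 4, 0.37 without HS replicate 2, 0.14 without CAL replicate 5, 0.12 without CAL replicate 2 and -0.09 without HS replicates 4 and 5.

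**Figure D5:**
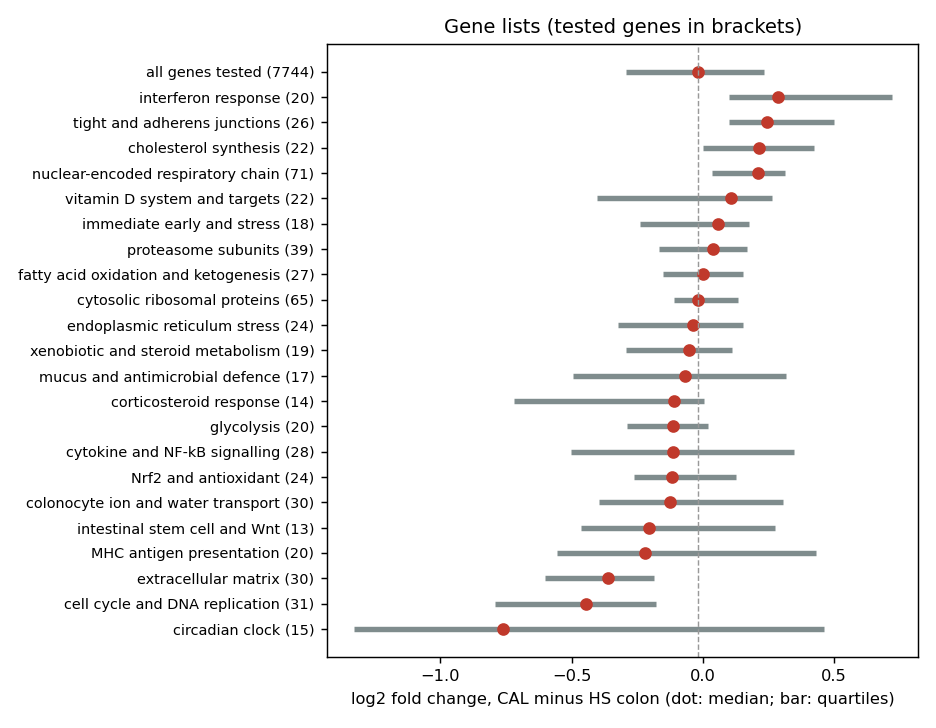
Median (dot) and quartiles (bar) of the log2 fold change of CAL minus HS colon for each function list with at least 5 tested genes (cell type markers are not drawn), all genes on top and as a dashed line at -0.02. The clock list lies at -0.76, furthest to the left of the lists drawn, and its quartiles span both signs.

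Of 20 antigen presentation genes, 9 lay above and 11 below 0, with 4 higher and 3 lower at an unadjusted p under 0.05. Over all genes the shares at that p were 3.37% higher and 4.97% lower. The class I genes RT1-A2 (815 CPM in CAL, 362 CPM in HS, 1.17) and RT1-CE10 (246 CPM in CAL, 153 CPM in HS, 0.68) lay above 0, and the class I genes RT1-N3 (-0.41) and RT1-M3-1 (-0.40) and the class II chain Cd74 (-1.49) below. Cd74 reached its highest level in HS replicate 4, one of those with high B cell markers. Of 14 corticosteroid genes, 4 lay above and 10 below 0, with 0 higher and 3 lower at an unadjusted p under 0.05. The receptor Nr3c1 averaged 37.6 CPM in CAL and 67.6 CPM in HS (-0.78), and its target Fkbp5 12.8 CPM in CAL and 29.7 CPM in HS (-1.19). Of the other members, Klf9 stood at -0.83 and Usp2 at -0.76. Tsc22d3 (0.0094), Dusp1 (-0.02) and Sgk1 (0.14) lay near 0, and the mineralocorticoid receptor Nr3c2 stood at 0.54. The alarmin Il33 averaged 92.8 CPM in CAL and 219 CPM in HS (-1.20).

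Other lists are given by their counts at an unadjusted p under 0.05, beside 3.37% of all genes higher and 4.97% lower, and edgeR's adjusted p called none of their genes. The 28 cytokine and NF-kB genes had 3 higher and 3 lower, a larger share than over all genes. The 24 genes of endoplasmic reticulum stress had 1 higher and 1 lower, the 24 of the Nrf2 and antioxidant list 0 higher and 1 lower, and the 27 of fatty acid oxidation and ketogenesis 0 higher and 2 lower. The 65 ribosomal protein genes had 1 higher and 0 lower, and the 39 proteasome genes 0 in either direction.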

How the data were processed

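Total RNA of colon was sequenced as cDNA libraries, and the authors deposited raw read counts per gene. Per the submitters' processing notes, FastQC 0.11.9, Trimmomatic 0.39, HISAT2 2.1.0 and featureCounts 1.6.5 were used with Rnor 6.0. Annotation release and strand setting are not given in the sources used here, so overlapping and antisense genes cannot be told apart. Totals were 267976 to 825547 counts in CAL, 305700 to 918820 in HS and 375193 to 764013 in NC, and 3 counts equal 3.27 to 11.2 CPM. The floors follow from the totals alone. Haemoglobin shares differed between libraries beyond counting error. CAL replicate 1 had 0.0243% (95% binomial interval 0.0211 to 0.0280) and CAL replicate 3 had 0.191% (0.175 to 0.208).

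Genes passing edgeR's filterByExpr (minimum count 10, total 15) were fitted with edgeR 4.0.16 (TMM, quasi-likelihood, R 4.3.3) over 15 colon libraries, contrast CAL minus HS, Benjamini-Hochberg threshold 0.05. Levels are TMM-scaled CPM; marker sums and genes not tested are plain CPM of all counts. Of 20207 genes, 7744 were tested. Named genes are the 10 with the smallest p in each direction that have a symbol, up to 2 or 4 per list, and the calcium and sodium transport genes always given; other clock, MHC and corticosteroid genes and Calb1 were named after their values were seen. A few genes chosen this way are left unreported. Members and lists were chosen with earlier results of these data known. Lists are described by counts and medians. Alternatives used DESeq2 1.42.0 and limma 3.58.1. Of 45 library pairs compared, 0 were identical. The fit was tested on simulated data.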

Additional observations from a re-analysis of the deposited data

Results flagged for a closer look

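Single libraries stood outside the rest of their group in 14 of 207 groups examined over 69 named genes, by Dixon's gap-to-range cutoff. That cutoff flags about 1 in 20 by chance only for normally distributed values. The values here were untransformed CPM of genes mostly picked by p, and every flag was on the high side. The count is therefore not set against chance. In CAL the flagged values were Dbp in replicate 3 (41.9 CPM, the others at most 21.9), Apoa1 in replicate 2 (374 CPM) and Slc51a in replicate 1 (95.9 CPM). In HS they were Irf7 (68.7 CPM) and Cldn23 (183 CPM) in replicate 5, Bok in replicate 1 (302 CPM), and Sox9 (97.6 CPM) and Klf2 (51.3 CPM) in replicate 4. In NC they were Dbp (104 CPM, the others at most 30.1) and Il33 (248 CPM) in replicate 5, Retnlb (2171 CPM) and Cd37 (63.9 CPM) in replicate 1, Slc51a in replicate 3 (92.5 CPM) and Vdr in replicate 4 (631 CPM).

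HS replicate 3, outside the comparison, held 13820 CPM of Fabp6, 40121 CPM of Reg3g and 33134 CPM of Reg3b, against at most 13.7, 6.90 and 3.05 CPM in any NC library.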

How the results depend on the processing

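Few calls were made, and their number moved with the fit. Genes called higher numbered 0 in the fit reported, 4 with DESeq2, 22 with no low-count filter and 0 to 3 when 1 library was left out. Genes called lower numbered 1 in the fit reported, 2 with DESeq2, 55 with no low-count filter, 0 with voom weights, 0 on thinned counts, 0 without HS replicates 2 and 5, 1 without HS replicates 4 and 5 (Akr1c14 in place of Dbp) and 0 to 3 when 1 library was left out. Leaving out HS replicates 4 and 5, or 2 and 5, was chosen after seeing the data. Dbp had an adjusted p of 0.0770 with voom weights, 0.290 on thinned counts, 0.392 without HS replicates 4 and 5 and 0.198 without 2 and 5.

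Same-numbered CAL and HS samples deviated with correlations of -0.0187, 0.243, 0.121 and -0.116. Only CAL replicate 2 correlated best with the HS sample of its own number. So few values cannot decide whether the numbers mark pairs. With a replicate block, 0 genes were called higher and 0 lower, and Dbp had an adjusted p of 0.168.

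Over 69 named genes, 62 kept their direction in every alternative run. With HS replicate 3 added back, Apoa1 (-1.89), Ccl5 (-2.45) and Slc51a (-4.41) reversed. Without HS replicates 4 and 5, Cd37 (2.70) and Fcrla (0.73) reversed. S100g ranged from -0.048 to 0.71 and Scnn1a from -0.15 to 0.36 when 1 library was left out, and Scnn1a was -0.33 without HS replicates 2 and 5. The cause was not tested. Depth limits what a level near 3 counts can show.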

Other observations

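Of 22 cholesterol synthesis genes tested, 0 were called by edgeR, beside 0.0129% of all genes. Of the 22, 16 lay above 0, beside 48.2% of all genes. At an unadjusted p under 0.05, 1 was higher and 0 lower, beside 3.37% and 4.97% of all genes. Insig1, a brake on sterol synthesis, averaged 237 CPM in CAL and 137 CPM in HS (log2 fold change 0.82), and did not pass the threshold. Among metabolic genes, Hsd17b2, which inactivates sex steroids, had 69.9 to 156 CPM in CAL and 180 to 263 CPM in HS, without overlap (-0.76).

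Among other segments' markers, Apoa1, an apolipoprotein of the small intestine, had 83.2 to 374 CPM in CAL and 24.8 to 59.8 CPM in HS. These groups did not overlap (1.94), and NC had 56.2 to 657 CPM. Of the 6 small intestine markers tested, 4 lay above 0 and 2 below. With no low-count filter, 8 lay above 0 and 10 below. The summed small intestine markers had a median of 380 CPM in CAL and 388 CPM in HS. The chemokine Ccl5 averaged 39.8 CPM in CAL and 12.5 CPM in HS. Apoa1 and Ccl5 reversed when HS replicate 3 was added back.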
